A study of Mus musculus with 4 samples.

Results

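The comparison described here set C3H10T1/2 cells transfected with DNMT1 siRNA (siDNMT1_OB) against cells transfected with control siRNA (NC_OB), both transfected for 48 h and then induced towards osteoblasts (OB) for 3 days with L-ascorbic acid, β-glycerophosphate and dexamethasone. C3H10T1/2 is a mouse mesenchymal stem cell line from C3H embryos, and all libraries came from this line. The members were all regions whose identifier had a methylation level in both libraries, which gave 154242 regions of 164078 with a level in any of the 4 libraries of the series. The other 2 libraries were uninduced cells with control siRNA (NC) or DNMT1 siRNA (siDNMT1), and this uninduced pair shared no library with the OB pair. Each condition had 1 library, so no difference below has a replicate check, no p-value was computed, and effects of the siRNA cannot be told apart from differences between 2 cultures or 2 libraries.

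DNMT1 is the maintenance methyltransferase and acts on the hemimethylated CpG left behind the replication fork. Dividing cells that are short of it are known to lose methylation passively, generation by generation. CpG islands, the short CpG-rich stretches at many transcription starts, are mostly unmethylated, whereas their flanking shores, introns, 3′ UTRs and repeats carry intermediate or high methylation. Methylation of repeats is known for keeping transposable elements silent, and methylation of islands at starts is known for silencing imprinted, germline and X-linked genes.

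Each value was a methylation level, the fraction of methylated CpG cytosines in a region, from 0 to 1. A region was said to have fallen or risen when siDNMT1_OB minus NC_OB reached 0.1 in either direction, and to be lower or higher when the sign alone is meant. Below, a difference after induction means siDNMT1_OB minus NC_OB, not a change from uninduced to induced cells. Between 155398 and 159705 regions were listed per library, fewest in siDNMT1_OB, and 4343 regions were listed in NC_OB but not in siDNMT1_OB against 1156 the other way. Read counts were not among the values used here, so depth is unknown and a single level carries no interval. Transcripts were not in these files, so neither the knockdown nor the cell type could be checked by expression. The level of Dnmt1 itself was close in NC_OB and siDNMT1_OB at its promoter, at 0.197 and 0.187, and in its 5′ UTR, at 0.0174 and 0.0199. Its exons had 0.559 and 0.543 and its introns 0.45 and 0.411. The intron difference was -0.0395, against a median of -0.0131 over all introns. Among promoters of mesenchymal markers, the level in NC_OB ranged from 0.0114 to 0.761 over 7 genes with a level, with Thy1 the highest, and among promoters of markers of other cell types from 0.0322 to 0.691 over 6 genes.

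Some of the islands named below are shown first, each by 30 bases of the reference genome (GRCm38, plus strand). These bases are those that hold the most CpG, with every CG in capitals. Levels were given per island, so no difference can be placed on these bases, and some islands with larger differences are not shown. The windows lie in 5 CpG islands, at chrX:6047385-6047414 for Nudt11, chrX:6173322-6173351 for Nudt10, chr3:80913589-80913618 for Glrb, chr6:52316708-52316737 for Evx1 and chr7:73409294-73409323 for Rgma.
Nudt11 island: CGCGCGCGCGcaCGCGggccCGgccaCGCG
Nudt10 island: CGCGCGCGtggcCGggccCGCGtgCGCGCG
Glrb island: CGagtccCGcCGcCGccCGCGccacCGcCG
Evx1 island: tgggCGcCGCGtcCGcCGcctCGgcCGcCG
Rgma island: agccaCGcccctgcctcCGaCGaCGtgcCG
The Nudt11 and Nudt10 windows held 10 CG each and the Rgma window 5, and the Nudt11 and Nudt10 islands read alike on opposite strands.

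Promoters of genes whose region classes moved together are shown in the same way from RefSeq (GRCm38.p6, gene strand), at chrX:157698748-157698777 for Smpx, chr12:116077684-116077713 for Vipr2, chrX:73342599-73342628 for Zfp275 and chrX:36903509-36903538 for Nkrf. The table held 10 of the 12 genes looked up, and its starts may differ from those the authors used for promoters.
Smpx promoter: gttactaagcttggattcaagcaaCGtcCG
Vipr2 promoter: ggCGCGaggCGgggactgggcCGaggggCG
Zfp275 promoter: ccaggCGgCGccccCGgctcCGgaaaCGCG
Nkrf promoter: aaaaatgcccatCGCGCGagatttCGCGCG
Over the 300 bases of each RefSeq promoter, Smpx held 5 CG, against 18 for Vipr2, 20 for Zfp275, 17 for Nkrf and a median of 7 over 32851 promoters.

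Methylation was lower in siDNMT1_OB in the median of every region class, by small amounts that differed between classes. The median difference was -0.02 in 3′ UTRs, -0.0157 in repeats and -0.0131 in introns, and 78.1%, 67.9% and 74.3% of these regions were lower. Shores had a median difference of -0.00817, exons -0.00686 and promoters -0.0037. Islands, with -0.00111, and 5′ UTRs, with -0.00069, differed least. The 95% order-statistic interval of the median ran from -0.0208 to -0.019 in 3′ UTRs and from -0.00125 to -0.000998 in islands. These intervals take each region as a separate observation and say nothing of how cultures vary.

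In the uninduced pair every class median was nearer to 0 than in the OB pair. It was -0.00721 in 3′ UTRs, -0.00516 in repeats, -0.00435 in introns and -0.00221 in shores. Islands and 5′ UTRs had medians above 0 there, at 0.000471 and 0.000619. The difference between the pairs was not tested, since each pair is 1 library against 1. NC_OB minus NC, which shares the NC_OB library with the OB pair, had a median of -0.00312 in islands, -0.00627 in shores, -0.00426 in introns, -0.00109 in 3′ UTRs and 0.0058 in repeats.

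**Figure D1:**
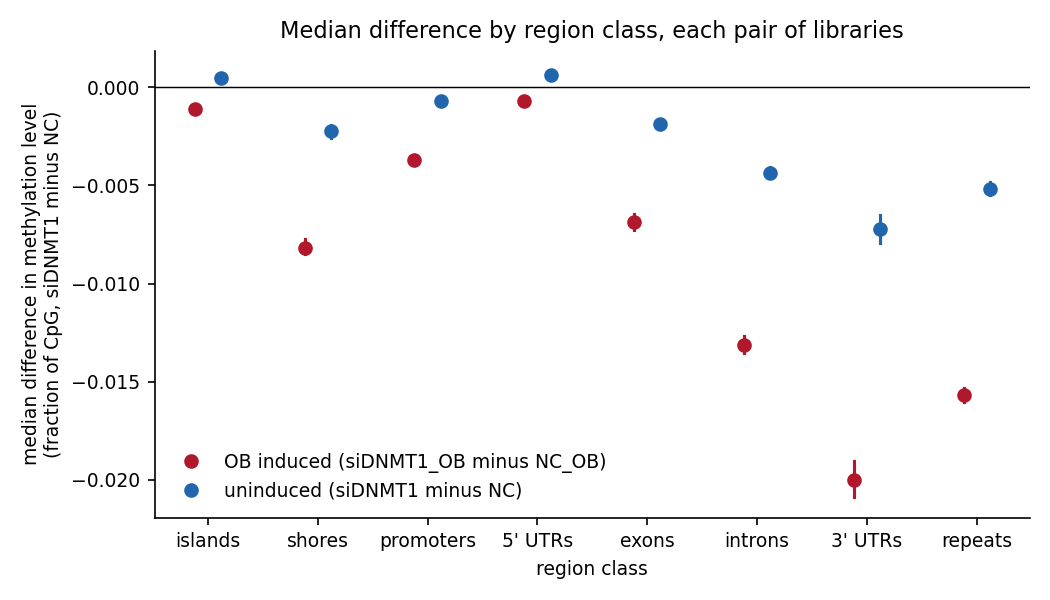
Median difference in methylation level (siDNMT1 minus NC, fraction) for the 8 region classes, in the OB induced pair (red) and the uninduced pair (blue), with bars for the 95% order-statistic interval of the median over regions. The OB induced medians lie below 0 in every class and reach -0.02 in 3′ UTRs, and the uninduced medians lie nearer to 0, above it in islands and 5′ UTRs.

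The median difference grew in size with the level of the region up to a level of 0.75, except that islands between 0.3 and 0.5 (-0.00768) did not exceed those between 0.1 and 0.3 (-0.00809). Where the mean level of NC_OB and siDNMT1_OB was below 0.05, medians lay near 0 in all classes, between -0.000284 in introns and 0.000087 in islands. Since 8013 of 14145 islands and 7102 of 11596 5′ UTRs lay in this range, their class medians were close to 0. Between 0.5 and 0.75, medians were -0.024 in 3′ UTRs, -0.0212 in shores, -0.021 in introns, -0.0207 in promoters, -0.019 in repeats and -0.0185 in exons. Above 0.9, where bins held between 46 introns and 1251 repeats, medians were nearer to 0 again in 3′ UTRs (-0.0145), promoters (-0.0137) and islands (-0.0118), whereas they were -0.0246 in introns and -0.0223 in repeats.

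At matched levels between 0.3 and 0.9, islands and 5′ UTRs had medians nearer to 0 than the other classes. Islands with a mean level between 0.5 and 0.75 had a median of -0.0118 (95% interval -0.0135 to -0.0101, 1002 islands), and 5′ UTRs had -0.0141 (-0.0178 to -0.0112, 689 5′ UTRs), against -0.0212 in shores (-0.0223 to -0.0204, 3745 shores). Between 0.3 and 0.5 the island median was -0.00768 and that of shores -0.0163. Outside this range the order differed. Between 0.05 and 0.1 islands had -0.00463 and shores -0.00317, and above 0.9 5′ UTRs had -0.0199 and promoters -0.0137. In the uninduced pair, islands between 0.5 and 0.75 had a median of -0.00448 and shores -0.00789. NC_OB minus NC had its lowest medians in islands, at -0.0261 between 0.5 and 0.75 and -0.032 between 0.3 and 0.5. Each pair was binned by the mean of its own libraries, so the bins need not hold the same islands.

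**Figure D2:**
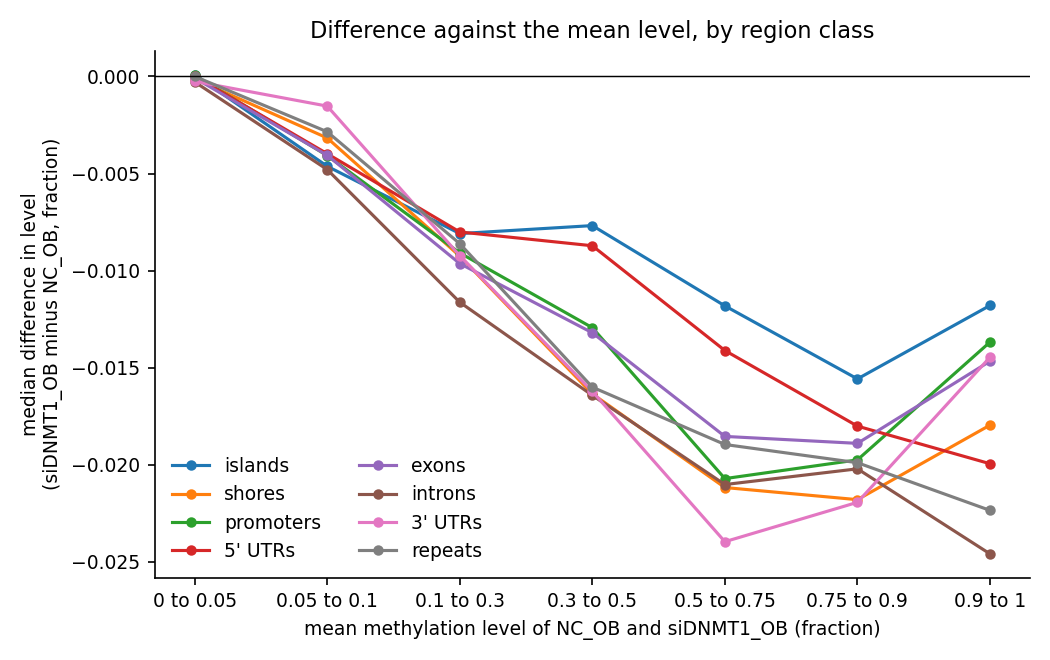
Median difference in methylation level (siDNMT1_OB minus NC_OB, fraction) against the mean level of both libraries, in 7 bins, with a line for each region class. All lines start near 0 below a level of 0.05, and between 0.5 and 0.75 islands sit at -0.0118 and 3′ UTRs at -0.024.

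CpG density went with the size of the difference within islands. All 14354 islands on assembled chromosomes began and ended with CG at the coordinates in the files, and they held a median of 10.1 CpG per 100 bp, against 1.65 in shores. When islands with a mean level between 0.5 and 0.75 were split into 4 density groups of nearly equal size, the median was -0.0146 in the sparsest group and -0.00748 in the densest. Above 0.75 it was -0.0178 in the sparsest and -0.0104 in the densest, and the 95% intervals did not overlap (-0.0196 to -0.016 and -0.0122 to -0.00862). Between 0.3 and 0.5 no such order was seen in islands, with -0.0088 in the sparsest group and -0.00857 in the densest. Shores above 0.75 went from -0.0237 in the sparsest group to -0.0181 in the densest, and shores between 0.3 and 0.5 from -0.021 to -0.0111, whereas shores between 0.5 and 0.75 had -0.0194 and -0.0195 at the ends.

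Falls of 0.1 or more outnumbered rises in every class. In islands 56 fell (0.396%) and 51 rose (0.361%), and in shores 325 fell (1.95%) and 152 rose (0.913%). In introns 269 fell (1.35%) and 131 rose (0.658%), in 5′ UTRs 144 fell (1.24%) and 80 rose (0.69%), and in 3′ UTRs 114 fell (2.58%) and 61 rose (1.38%). In repeats 2738 fell (5.87%) and 1638 rose (3.51%), in exons 334 fell (1.62%) and 184 rose (0.895%), and in promoters 313 fell (1.54%) and 176 rose (0.865%). Falls also outnumbered rises in most classes of NC_OB minus NC, which has control siRNA on both sides and shares NC_OB. There 127 islands fell and 55 rose, with 384 and 180 in shores and 343 and 198 in promoters. It was 203 and 98 in 5′ UTRs, 332 and 191 in exons and 229 and 189 in introns. In 3′ UTRs it was 93 and 73, and in repeats 2036 and 2257.

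The excess of falls shrank in most classes once the median difference of the class was subtracted from each difference. In shores 270 then fell and 178 rose, in exons 279 and 207, in introns 188 and 163, and in repeats 2114 and 2048, while in 3′ UTRs 74 fell and 86 rose. In 5′ UTRs, whose median hardly moved, 141 fell and 81 rose. Centring each library on its own class median gave 247 falls and 188 rises in shores, 243 and 236 in exons, 176 and 172 in introns, 70 and 89 in 3′ UTRs and 2031 and 2141 in repeats. That centring took out more than the median difference in these classes, for example -0.0132 against -0.00686 in exons and -0.0183 against -0.0157 in repeats, and rises outnumbered falls in repeats only under that centring.

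The share of regions past 0.1 was lower among regions with 50 or more CpG. Leaving aside islands with a mean level under 0.1, 3.67% of those with fewer than 20 CpG passed 0.1 in either direction, against 0.748% of those with 50 or more. Among shores the share went from 9.19% to 2.38%. Of the changed regions, between 7.34% (exons) and 13.2% (repeats) stood at exactly 0 or 1 in at least 1 of the libraries, against 0.842% and 2.8% of all exons and repeats. How many reads lay behind these levels is unknown, and its part in the large differences was not tested.

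**Figure D3:**
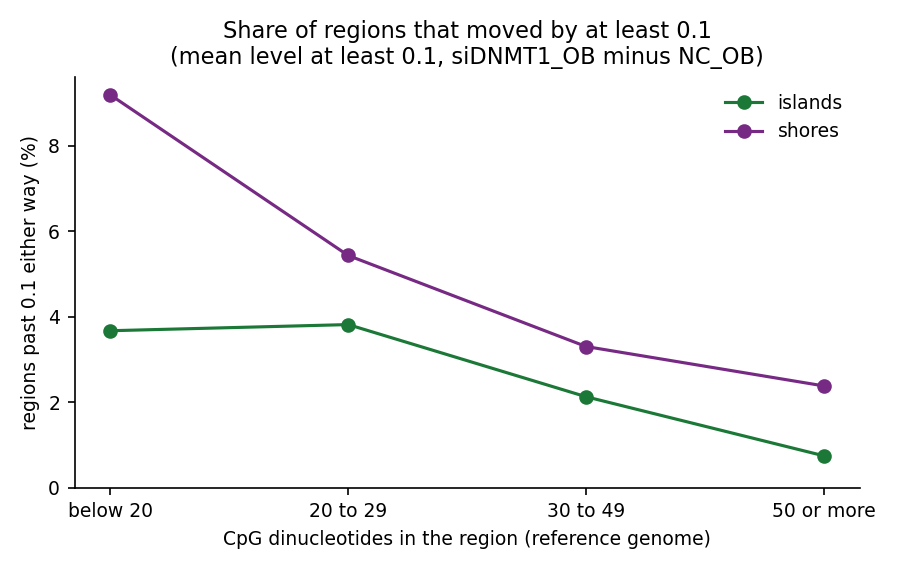
Share of islands and shores (%) whose level differed by at least 0.1 in either direction between siDNMT1_OB and NC_OB, by the number of CpG in the region on the reference genome, leaving out regions whose mean level was under 0.1. It was 9.19% in shores with fewer than 20 CpG and 0.748% in islands with 50 or more.

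Regions that fell in the OB pair had mostly not fallen in the uninduced pair. Of 299 shores that fell and had a level in all 4 libraries, 18 also fell in uninduced cells and 25 rose there (6.02% and 8.36%, against 0.876% and 1.03% of all shores with a level in the 4 libraries). Of 258 such introns, 20 fell and 28 rose (7.75% and 10.9%, against 0.779% and 0.557%). Of 106 such 3′ UTRs, 13 fell and 10 rose (12.3% and 9.43%, against 1.61% and 1.1%). Of 2434 repeats that fell, 322 fell and 278 rose in uninduced cells (13.2% and 11.4%, against 3.52% and 2.89% of all repeats with a level in the 4 libraries). The shores that fell had a median level of 0.512 in NC_OB and 0.333 in siDNMT1_OB, and of 0.47 in NC and 0.477 in siDNMT1. In 86.6% of these shores siDNMT1_OB was the lowest of the 4 libraries, against 52.4% of all shores with a level in the 4. In islands these shares were 80% and 47.8%, and in promoters 82.7% and 48.7%. Picking regions by siDNMT1_OB minus NC_OB favours this rank.

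The shores on either side of an island were compared, although few shores changed. Over all shores, 1.95% fell and 0.913% rose. Of 4246 islands with a level of their own and in both shores, 77 had a fallen shore on the side of lower coordinates and 84 on the other side, and in 1 both had fallen. In none of these islands had both shores risen. With so few changed shores, these counts cannot show whether the sides of an island moved together. The correlation between the differences of an island's shores was 0.0197 across these islands, which share their libraries and are not replicates. By sign alone, both shores were lower around 1933 islands (45.5%) and higher around 478. Of 36 islands that fell and had a shore with a level, 3 had a shore that fell too, against 296 of all 10877 islands with such a shore.

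The islands with the largest falls lay inside genes. The island inside Rgma (chr7:73409278-73409531, 24 CpG), which encodes a BMP co-receptor of the repulsive guidance family, had a level of 0.829 in both NC and siDNMT1, 0.857 in NC_OB and 0.4 in siDNMT1_OB. An island inside 1700020L24Rik (62 CpG) went from 0.432 in NC_OB to 0 in siDNMT1_OB, with no level in the uninduced libraries. The island inside Hk1, encoding a hexokinase, had 0.7 in NC_OB and 0.4 in siDNMT1_OB, but 0.5 in NC and 0.794 in siDNMT1. Only in siDNMT1_OB was the Rgma island apart from the other libraries, whereas the Hk1 island moved in opposite directions in the 2 pairs. Ccdc151, needed to dock dynein arms in cilia, had an island that was lower in both pairs, with 0.69 in NC_OB and 0.435 in siDNMT1_OB, and 0.583 in NC and 0.407 in siDNMT1. The island shared by Sumf1 and Rpl36-ps12 had 0.825 in NC_OB and 0.571 in siDNMT1_OB.

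The islands with the largest rises lay in or near genes of unlike kinds. The island at the start of the ribosomal pseudogene Rpl10a-ps1 (21 CpG) had 0.462 in NC_OB and 1 in siDNMT1_OB, against 0.32 in NC and 0.429 in siDNMT1. An island 15560 bp from Qk, the nearest protein-coding gene, had 0.2 in NC_OB and 0.706 in siDNMT1_OB. The island inside Arhgef19 rose from 0.583 to 0.929, and the one at the start of Gm8399 from 0.556 to 0.831. The island at the start of Drd4, the dopamine receptor D4, rose from 0.2 in NC_OB to 0.473 in siDNMT1_OB, while NC had 0.48 and siDNMT1 0.405. In Drd4 it was NC_OB that stood below the other libraries.

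Among 8841 islands with at least 50 CpG, a list made after the values were seen, 8 fell and 12 rose. Of all 14145 islands, 56 fell (0.396%) and 51 rose (0.361%). The island at the start of Glrb, the beta subunit of the glycine receptor (chr3:80913267-80913760, 74 CpG), had 0.204 in NC, 0.233 in siDNMT1, 0.32 in NC_OB and 0.075 in siDNMT1_OB. The island inside the homeobox gene Evx1 (chr6:52316548-52317165, 77 CpG) had 0.168 in NC, 0.166 in siDNMT1, 0.143 in NC_OB and 0.308 in siDNMT1_OB. In both islands, which were picked by their difference in the OB pair, the siDNMT1_OB level lay outside the range of the other libraries. The island at the start of Gm2a, the GM2 ganglioside activator, rose from 0.118 to 0.28, and NC had 0.408. The island shared by Ccdc105 and Gm30400 fell from 0.579 to 0.429, and an island 51113 bp from Pdia4 rose from 0.143 to 0.4.

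The X-linked islands of Nudt11 and Nudt10, paralogs that encode diphosphoinositol polyphosphate phosphohydrolases, moved in opposite directions. The Nudt11 island (chrX:6047292-6048447, 172 CpG) had 0.424 in NC, 0.455 in siDNMT1, 0.464 in NC_OB and 0.702 in siDNMT1_OB. The Nudt10 island (chrX:6172299-6173448, 169 CpG) had 0.626 in NC, 0.582 in siDNMT1, 0.639 in NC_OB and 0.489 in siDNMT1_OB. Of 1127 different 30-base words in the Nudt11 island, 1051 (93.3%) also occurred on the opposite strand of the Nudt10 island. How reads were assigned between these copies was not tested, and neither level is certain. The mean of both islands was 0.525 in NC, 0.519 in siDNMT1, 0.551 in NC_OB and 0.595 in siDNMT1_OB. The higher island in NC_OB was thus the lower one in siDNMT1_OB, while their mean differed by 0.0441.

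The shores with the largest falls included some with many CpG. A shore 13182 bp from Fbln2, encoding the matrix protein fibulin 2 (chr6:91285722-91287722, 55 CpG), had 0.802 in NC, 0.776 in siDNMT1, 0.75 in NC_OB and 0.125 in siDNMT1_OB. The shore inside Cactin (61 CpG) had 0.73 in NC, 0.825 in siDNMT1, 0.579 in NC_OB and 0.0857 in siDNMT1_OB. Both were methylated in 3 libraries and low in siDNMT1_OB. The shore inside Chst3, a chondroitin sulfotransferase, fell from 0.8 to 0.2, and the one inside Aamp from 0.542 to 0.102. The shore inside Dtymk, the thymidylate kinase, had 0.464 in NC_OB and 0.0116 in siDNMT1_OB, but 0.00714 in NC and 0.61 in siDNMT1. With at least 50 CpG, a shore at the starts of Gm8034 and Syvn1 fell from 0.506 to 0.194, and a shore inside Hlf, a circadian-type bZIP factor, from 0.478 to 0.175.

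Of the shores with at least 50 CpG, the one inside Ocstamp, which encodes a transmembrane protein of osteoclast fusion, had the largest rise and rose in both pairs. It held 52 CpG and had 0.297 in NC, 0.628 in siDNMT1, 0.458 in NC_OB and 0.846 in siDNMT1_OB. The shore inside Sh3bp2 (21 CpG) also rose in both, with 0 in NC, 0.649 in siDNMT1, 0.111 in NC_OB and 0.625 in siDNMT1_OB. Shores inside Gm9888 (0.389 to 1), Aldh7a1 (0 to 0.6) and Fbxo41 (0.308 to 0.8) and at the start of Syce3 (0.545 to 1) rose by 0.455 to 0.611. Of the other shores with at least 50 CpG, the one at Zbtb9 and Ggnbp1 rose from 0.197 to 0.508, a shore 9336 bp from Snx6 from 0.0833 to 0.357, and the shore over the start of Drd4, which spans its island, from 0.2 to 0.473.

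Introns had the largest falls in Suco, an endoplasmic reticulum protein also known as osteopotentia. Suco introns had 0.833 in NC, 0.747 in siDNMT1, 0.749 in NC_OB and 0 in siDNMT1_OB. Introns of Plin4, a lipid droplet protein, had 0.524 in NC_OB and 0 in siDNMT1_OB, but 0.469 in NC and 0.744 in siDNMT1. Introns of Anapc1 (0.542 to 0) and Gm47868 (0.812 to 0.2) also fell. The introns that rose most were those of Gm16036 (0 to 0.685), Olfr459 (0.375 to 0.889), Bhmt and the overlapping Gm15622 (0.5 to 1 in both) and Gm30075 (0.514 to 1). Of these named introns, 6 stood at exactly 0 or 1 in siDNMT1_OB.

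Among 5′ UTRs with large falls, Edar, the ectodysplasin receptor, had a 5′ UTR level of 0.259 in NC, 0.333 in siDNMT1, 0.583 in NC_OB and 0.111 in siDNMT1_OB. Slc22a16, a carnitine transporter, fell from 0.773 to 0.35, and Slc6a20a, an amino acid transporter, from 0.49 to 0.136. The 5′ UTR of 5330417C22Rik fell from 0.8 to 0.467 and had 0 in NC. Lep, encoding leptin, had 0.373 in NC, 0.348 in siDNMT1, 0.458 in NC_OB and 1 in siDNMT1_OB. D630039A03Rik (0.44 to 1), S1pr4 (0.455 to 1), Cdk5r2 (0.125 to 0.667) and Msgn1 (0.36 to 0.857) rose as well.

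In 3′ UTRs, Kdm5c, an X-linked histone H3K4 demethylase, fell from 1 to 0.4 and Mepce from 1 to 0.417. Mepce, a capping enzyme of 7SK RNA, was also lower in the uninduced pair, with 0.891 in NC and 0.691 in siDNMT1, whereas Kdm5c was higher there (0.835 and 0.952). Mre11a, a nuclease of double-strand break repair, fell from 0.5 to 0, Cox19 from 0.543 to 0.143 and Shtn1 from 0.545 to 0.2. The 3′ UTR of the olfactory receptor gene Olfr520 rose in both pairs, with 0.227 in NC, 0.667 in siDNMT1, 0.143 in NC_OB and 1 in siDNMT1_OB. Gcfc2 also rose in both, from 0 to 0.6 after induction. Man2a1 (0.412 to 1), Atf5 (0.333 to 0.875) and Cttn, encoding cortactin (0.308 to 0.833), rose in the OB pair.

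The exons that fell most were those of Gm38201 (0.778 to 0), Trbj2-2 (0.6 to 0) and Itprid1 (0.714 to 0.167), and those that rose most were of Hemk1 (0.0588 to 0.8), Ola1 (0.0761 to 0.7) and Rps3 (0.353 to 0.923). Exons of Ola1 had 0.833 in NC and 0.824 in siDNMT1, so the NC_OB library stood apart. In all, 62 regions were taken by size of difference over islands, shores, introns, exons, UTRs and repeats. Of these, 30 stood at exactly 0 or 1 in an OB library. Of 44 with a level in the uninduced pair, 18 had the same sign there, 9 of them past 0.1, and 14 passed 0.1 with the opposite sign.

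Region classes of a gene seldom passed 0.1 together. Of 28083 genes with a level in any class, 1078 (3.84%) had at least 1 class that fell and 565 (2.01%) at least 1 that rose. The files gave 1 level per gene for promoter, 5′ UTR, exons, introns and 3′ UTR, and 15136 genes had a level in at least 3 of these 5 classes in both OB libraries. In 972 of them at least 1 class passed 0.1, in 836 exactly 1 class, in 117 it was 2 classes and in 19 it was 3 or more. In 6 genes (0.0396%) at least 3 classes fell and none rose, and in 7 genes (0.0462%) at least 3 rose and none fell. In the uninduced pair these counts were 3 and 11. The X chromosome, which held 2.66% of the 15136 genes, held 2 of the 6 and 4 of the 7.

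Classes of a gene can count the same cytosines, since 5′ UTRs are parts of exons. In 4 of the 6 and 5 of the 7 genes, at least 2 classes had identical levels in both OB libraries, against 1585 of all 15136 genes, so such genes give fewer separate measurements than classes. Across genes, the differences of exons and 5′ UTRs had a correlation of 0.346, and those of exons and 3′ UTRs 0.239. Of 144 genes whose 5′ UTR fell, exons fell too in 30 (20.8%), against 0.941% of all 11588 genes with both classes. Of 52 genes whose exons fell, the 3′ UTR fell too in 13 (25%), against 2.59% of 4408. For classes that need not overlap the correlation was lower, at 0.172 for promoters and 5′ UTRs, 0.11 for promoters and introns, 0.0304 for introns and 3′ UTRs and -0.0208 for promoters and 3′ UTRs. Of 89 genes whose promoter fell, the 5′ UTR fell too in 9 (10.1%, against 1.09% of 10717 with both classes). For promoters and introns it was 10 of 170 (5.88%, against 1.04% of 14172). For promoters and 3′ UTRs it was 1 of 45 (2.22%, against 2.49% of 3697). Among 4020 genes with introns and a 3′ UTR, introns fell in 22 and the 3′ UTR in 97, and both fell in none. With so few falls, that count cannot show whether these classes moved together. These correlations are across genes of the same 2 libraries and are descriptions.

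Smpx, encoding a small X-linked protein of muscle, fell in 4 classes and was lower in the same classes of the uninduced pair. Its promoter (CG-poor in the printed window) had 0.468 in NC, 0.306 in siDNMT1, 0.438 in NC_OB and 0.239 in siDNMT1_OB. Its 5′ UTR and exons shared 1 level, 0.406 in NC, 0.283 in siDNMT1, 0.375 in NC_OB and 0.247 in siDNMT1_OB. Its introns had 0.565 in NC, 0.531 in siDNMT1, 0.487 in NC_OB and 0.304 in siDNMT1_OB. Each siDNMT1 library was thus below its own control in every class of Smpx.

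Vipr2, a receptor of vasoactive intestinal peptide, fell at its start and not in its introns. The promoter had 0.181 in NC, 0.0997 in siDNMT1, 0.276 in NC_OB and 0.156 in siDNMT1_OB. The 5′ UTR fell from 0.337 to 0.214 and the exons from 0.268 to 0.157, whereas the introns had 0.457 and 0.455. The 5′ UTR and exons were lower in the uninduced pair as well, with 0.227 in NC and 0.143 in siDNMT1 for the 5′ UTR and 0.169 and 0.109 for exons.

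The other genes described that fell in the OB pair were higher in siDNMT1, or of mixed sign, in the uninduced pair. The promoter of Zfp275, an X-linked zinc finger gene, had 0.136 in NC, 0.184 in siDNMT1, 0.418 in NC_OB and 0.241 in siDNMT1_OB, so NC_OB was the highest library. Zfp275 5′ UTR and exons shared a fall from 0.395 to 0.241. Atp6v1e2, a subunit of the vacuolar proton pump, fell from 0.494 to 0.369 in 5′ UTR and exons and from 0.467 to 0.314 in introns. The long noncoding RNA gene Gm49756 fell from 0.789 to 0.68 in promoter and introns, at identical levels, and from 0.61 to 0.421 in exons. Less the median difference of their class, Gm49756 introns had -0.0961 and no longer reached 0.1. Centring each library on its class median also took Vipr2 exons (-0.0981) and the Gm49756 promoter (-0.0997) below 0.1.

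Of the genes that rose, Nkrf rose in both pairs. Nkrf encodes a repressor of NF-kappaB targets on the X chromosome. Its 5′ UTR and exons shared 0.189 in NC, 0.291 in siDNMT1, 0.251 in NC_OB and 0.361 in siDNMT1_OB, and its introns had 0.314, 0.415, 0.384 and 0.491. Its promoter rose by less, from 0.127 to 0.152 after induction. In every class of Nkrf the siDNMT1 library was above its own control.

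Nudt11 exons rose from 0.451 to 0.673, and its introns and 3′ UTR shared a rise from 0.542 to 0.889, while Nudt10 exons had 0.639 and 0.507. These genes carry the shared sequence described for their islands. Irf3, a transcription factor of interferon induction, rose in its promoter from 0.168 to 0.282, its exons from 0.163 to 0.279 and its introns from 0.287 to 0.393, and its 5′ UTR had 0.0105 in both libraries. Irf3 levels in the uninduced pair differed by less than 0.1, with 0.185 and 0.167 at the promoter. Chrdl1, an X-linked BMP antagonist, rose from 0.592 to 0.72 in promoter, 5′ UTR and exons, which had identical levels, whereas uninduced cells went from 0.711 in NC to 0.559 in siDNMT1. Chrdl1 introns were lower after induction, with 0.503 and 0.463. Il1rapl2, another X-linked gene, rose from 0.408 to 0.537 in its promoter, from 0.396 to 0.526 in its 5′ UTR and from 0.382 to 0.503 in its exons, and its promoter in uninduced cells had 0.502 in NC and 0.39 in siDNMT1. Il1rapl2 introns had 0.426 in NC_OB and 0.415 in siDNMT1_OB. The kallikrein gene Klk13 rose in 4 classes, from 0.0588 to 0.25 in its promoter and from 0.1 to 0.417 in introns, with no level in NC. Gm12216 rose from 0 to 0.2 in promoter and 5′ UTR and from 0.533 to 0.641 in exons, whereas its introns had 0.7 and 0.667 and its 3′ UTR 0.322 and 0.304.

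**Figure D4:**
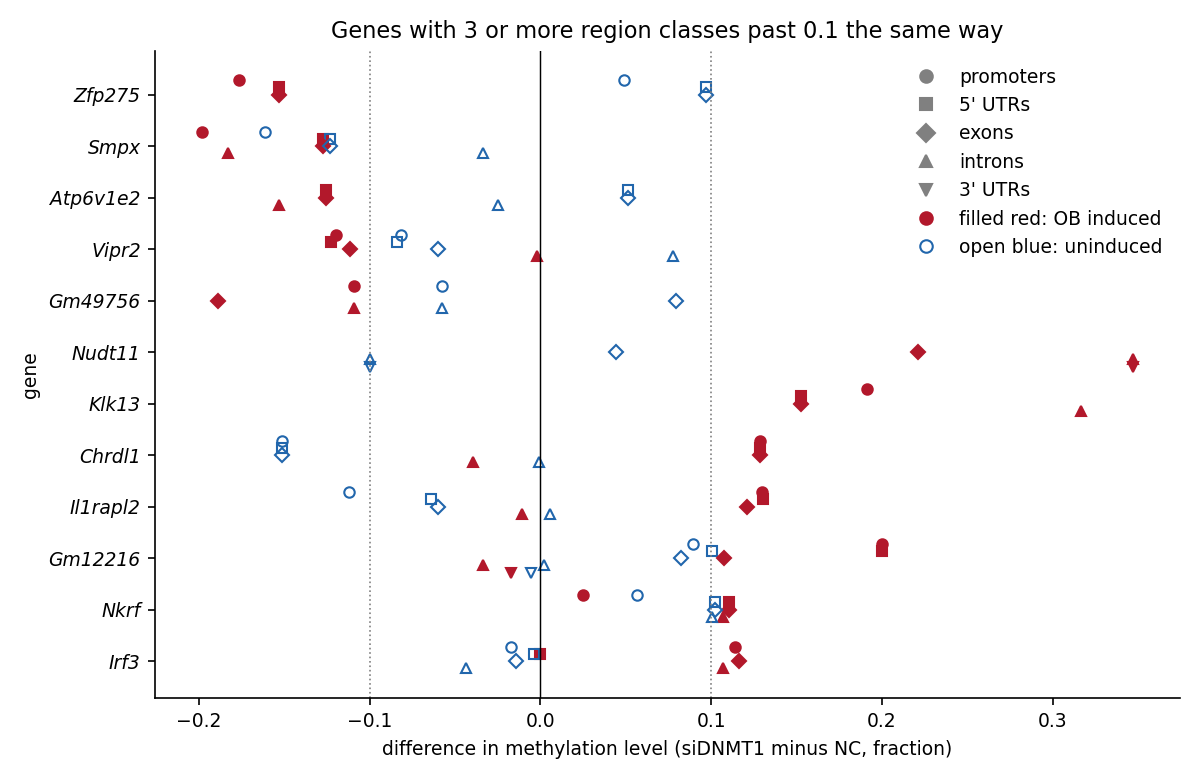
Difference in methylation level (siDNMT1 minus NC, fraction) for each region class of 12 of the 13 genes with at least 3 classes past 0.1 in the same direction, in the OB induced pair (filled red) and the uninduced pair (open blue), with dotted lines at 0.1 either way. In Smpx and Nkrf both pairs lie on the same side of 0 in every class, and in Zfp275 and Chrdl1 the promoter lies on opposite sides.

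At a threshold of 0.05, 109 genes had at least 3 classes that fell and none that rose, and 32 the reverse, against 35 and 36 in the uninduced pair. Of the 109, 19 lay on the X chromosome, and of the 32, 17. Genes that passed in the same direction in both pairs were Gmpr, Lect2 and Smpx for falls and Uxt, Nkrf, Armcx4 and Gm12216 for rises. In Lect2, a secreted leukocyte chemotaxin, the 5′ UTR and exons shared 0.723 in NC, 0.667 in siDNMT1, 0.741 in NC_OB and 0.596 in siDNMT1_OB. The 3′ UTR of Gmpr, encoding GMP reductase, had 0.822 in NC, 0.763 in siDNMT1, 0.759 in NC_OB and 0.679 in siDNMT1_OB. The promoter of Uxt, an X-linked prefoldin-like gene, had 0.0547 in NC, 0.412 in siDNMT1, 0.371 in NC_OB and 0.516 in siDNMT1_OB. Armcx4 exons and 5′ UTR, also X-linked, rose from 0.44 to 0.554 after induction and from 0.381 to 0.475 in uninduced cells. At 0.03, 698 genes fell and 77 rose, against 173 and 101 in the uninduced pair, with 22 and 7 that did so in both pairs.

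By sign alone, genes with all classes lower were far more common than genes with all classes higher. Of 2880 genes with a level in all 5 classes, 635 (22.0%) were lower in all and 30 (1.04%) higher in all, against 315 and 84 of 2938 in the uninduced pair. Of 7923 genes with 4 classes, 1964 were lower in all and 515 higher in all. Of 4333 genes with 3 classes, the counts were 1679 and 356. Shared cytosines add to these counts in both directions.

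Regions on the X chromosome passed 0.1 more often than those on chromosomes 1 to 19. Of X islands 4.34% passed in either direction, against 0.654% on autosomes, and of X 5′ UTRs 9.64% against 1.69%. Shares on the X were 6.86% in shores, 4.83% in introns and 12.5% of 48 3′ UTRs, against 2.76%, 1.91% and 3.87%. The median level in NC_OB was higher in X islands, at 0.395 against 0.0267, and in X 5′ UTRs, at 0.388 against 0.0244. The median difference of X islands was 0.00177 and that of X 5′ UTRs 0.00157, both above 0, and the level range was not matched in this comparison. Rises outnumbered falls on the X in islands (11 and 5), 5′ UTRs (17 and 15), promoters (19 and 15) and exons (22 and 17), but not in shores (10 and 18) or introns (11 and 18). In the uninduced pair 9 X islands fell and 6 rose, against 27 and 26 on autosomes, and 12 X 5′ UTRs fell and 18 rose, against 60 and 69.

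Repeats were lower in siDNMT1_OB across all their kinds. The 46606 repeat entries carried 1040 names, and an entry is named by a repeat, a stretch of its consensus and its class, without a genome position, so entries could not be placed and whether an entry pools copies is not given. All 17 classes with at least 100 entries had a median below 0, as did 16 in the uninduced pair. All 89 names with at least 100 entries had a median below 0, as did 87 in the uninduced pair, and the OB median was the lower of the pairs in all 89.

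Among repeat classes, the median difference was -0.0222 in SINE/B2 (1511 entries), -0.0204 in SINE/MIR, -0.0198 in SINE/B4, -0.0188 in LINE/L2, -0.0185 in LTR/ERVL-MaLR and -0.0181 in SINE/Alu, the class of the mouse B1 elements. LTR/ERVK, which includes retroviruses still able to move in mice, had -0.0167 and LTR/ERV1 -0.0157. LINE/L1, the largest class with 21622 entries, had -0.0136 (95% interval -0.014 to -0.013), LINE/CR1 -0.0124 and satellites -0.0121. The remaining classes lay between -0.0179 in SINE/ID and -0.0149 in the class named Other. LINE/L1 had the lowest median level in NC_OB, at 0.436, against 0.58 in SINE/B2.

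At matched levels the spread between repeat classes depended on the level. Between 0.5 and 0.75 the median was -0.0176 in LINE/L1, -0.0196 in LTR/ERVK, -0.0196 in SINE/B2, -0.0199 in SINE/Alu, -0.0226 in SINE/B4 and -0.0226 in LINE/L2. The intervals of LINE/L1 (-0.0182 to -0.0169) and SINE/B2 (-0.0223 to -0.0164) overlapped there. Between 0.3 and 0.5 they did not, with -0.0141 in LINE/L1 (-0.015 to -0.0132) and -0.0322 in SINE/B2 (-0.0361 to -0.0233). Between 0.75 and 0.9 medians ran from -0.0154 in LTR/ERVK to -0.0315 in SINE/MIR, with -0.0186 in LINE/L1 and -0.0265 in SINE/B2.

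Single repeat names spanned a narrow range. The lowest medians were -0.0269 in B3 (635 entries), -0.0262 in B1_Mm and -0.0249 in L2, and the highest were -0.00967 in B1_Mur2, -0.00999 in L1MdA_IV and -0.0113 in L1MdF_IV. B3 went from a median level of 0.563 in NC_OB to 0.538 in siDNMT1_OB, and L1MdA_IV from 0.396 to 0.389. Of B3 entries, 9.45% fell and 2.99% rose, against 6.01% and 6.25% of L1MdA_IV entries. The interval of B1_Mur2 (-0.0179 to 0) overlapped that of B1_Mm (-0.0313 to -0.0172), another member of the B1 family. Such intervals take each entry as a separate observation, and a difference between these names was not tested. The single entries with the largest differences, in B1F1, B3 and L1MdA_IV for falls and B3A and ORR1F for rises, went between 1 and 0 in the libraries, and PB1D11 rose from 0.111 to 1.

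**Figure D5:**
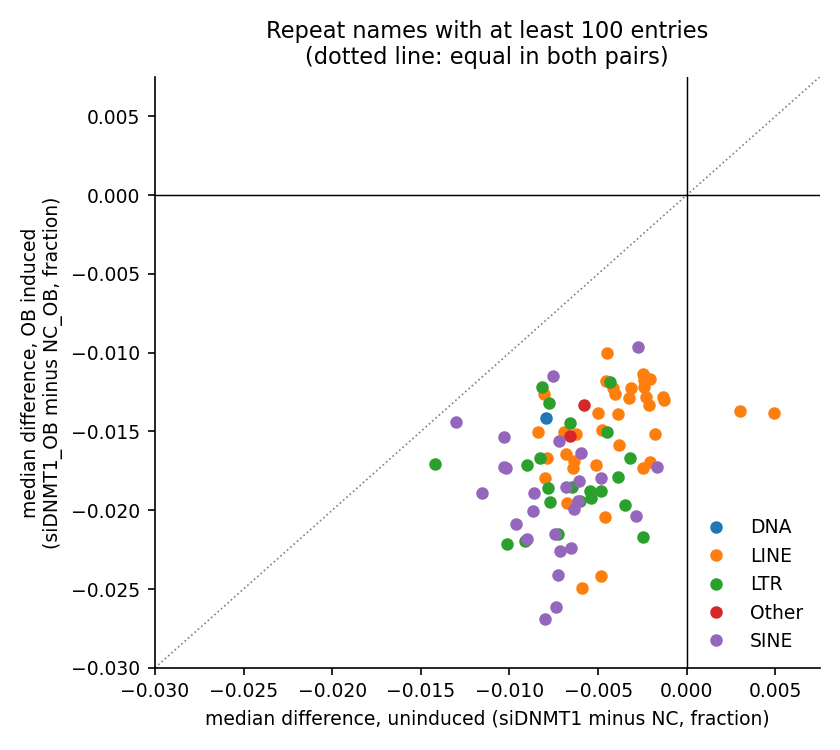
Median difference in methylation level for 89 repeat names with at least 100 entries, OB induced pair (siDNMT1_OB minus NC_OB, vertical axis) against the uninduced pair (siDNMT1 minus NC, horizontal axis), coloured by repeat kind. All points lie below 0 on the vertical axis, from -0.0269 in B3 to -0.00967 in B1_Mur2, and below the dotted line of equal medians.

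Genes of the skeletal lineages and of the methylation machinery were read as lists, by all their entries in the 5 gene classes. Over all genes, 1174 of 76837 entries fell (1.53%) and 632 rose (0.823%), with a median of -0.00616. Of the 13 osteoblast transcription factors, 52 entries had a median of -0.00687 and none passed 0.1. Hedgehog genes (57 entries, median -0.00998), BMP and TGF-beta genes (101 entries, -0.00377), muscle genes (35 entries, -0.00579) and mesenchymal markers (34 entries, -0.00332) had no entry past 0.1 either. The lowest medians were -0.0186 in chondrocyte genes (50 entries), -0.0158 in germline and meiosis genes (85), -0.0155 in markers of other cell types (28) and -0.0154 in the DNA methylation machinery (66), and adipocyte genes had -0.00137 (50). Bone matrix genes (41 entries) had -0.0072, Wnt genes (99) -0.0114, FGF genes (67) -0.00946 and imprinted genes (89) -0.0123. In each list between 0 and 3 entries fell and between 0 and 1 rose.

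Among bone matrix genes, 1 entry fell, the promoter of Sparc, which encodes osteonectin, a collagen-binding matrix protein. It had 0.396 in NC, 0.351 in siDNMT1, 0.359 in NC_OB and 0.183 in siDNMT1_OB, and siDNMT1_OB was below the other libraries. Among chondrocyte genes the promoter of Matn1, encoding cartilage matrilin, fell from 0.375 to 0.274, a difference of -0.0969 less the class median difference. The 5′ UTR of Lep was the 1 adipocyte entry that rose. In the Wnt list the 3′ UTR of the co-receptor Lrp6 fell from 0.25 to 0, and both uninduced libraries had 0.24. In the FGF list the promoter of Fgf1 fell from 0.158 to 0.05 (uninduced 0.24 to 0.138), and the 3′ UTR of Dusp6, a phosphatase of FGF feedback, rose from 0.562 to 0.667 (uninduced 0.667 to 0.767). Dusp6 and Fgf1 moved the same way in both pairs.

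In the germline list the 5′ UTR of Piwil2, of the piRNA pathway, fell from 0.655 to 0.505, exons of Tdrd1 from 0.525 to 0.421 (-0.0974 less the class median difference) and exons of Syce1, of the synaptonemal complex, from 0.729 to 0.554. The imprinted Peg3 had a 5′ UTR level of 0.34 in NC, 0.514 in siDNMT1, 0.631 in NC_OB and 0.486 in siDNMT1_OB. In the machinery list the 3′ UTR of Tet1, a 5-methylcytosine oxidase, rose from 0.333 to 0.5. Exons of Ptprc, a leukocyte marker, rose from 0.55 to 0.8.

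A list of 16 genes came from the study's text and, for Gata3 and Hoxa6, from earlier results of these data. It mixes genes of differentiation, imprinting and DNA methylation and is not independent of these samples. Its 63 entries had a median of -0.0112, and 3 fell. Among these were the 5′ UTRs of Gata3, which fell from 0.537 to 0.367, and of Hoxa6. Hoxa6, a homeobox gene, had a 5′ UTR level of 0.302 in NC, 0.13 in siDNMT1, 0.446 in NC_OB and 0.15 in siDNMT1_OB, so it fell in both pairs. The promoter of Hoxa6 went from 0.663 to 0.575 and its exons from 0.642 to 0.595.

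Dnmt3a and Npnt were lower in every class listed, without reaching 0.1, as were Hdac9 and H19. Of all genes with a level in 5 classes 22% were lower in all, and of those with 4 classes 24.8%. In Dnmt3a, the de novo methyltransferase, the promoter had 0.291 in NC_OB and 0.256 in siDNMT1_OB, the 5′ UTR 0.0849 and 0.0658, exons 0.536 and 0.518, introns 0.402 and 0.358 and the 3′ UTR 0.603 and 0.578. In Npnt, encoding the matrix protein nephronectin, the promoter had 0.12 and 0.0914, the 5′ UTR 0.0494 and 0.0278, exons 0.0464 and 0.0308 and introns 0.159 and 0.123. Introns of Dnmt3a and Npnt moved most, by -0.0445 and -0.0366. Hdac9 exons had 0.426 in NC_OB and 0.395 in siDNMT1_OB, and its introns 0.601 and 0.585.

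Rora and Fgfr2 moved little in any class, and most in introns. Rora, a nuclear receptor, had 0.11 in NC_OB and 0.105 in siDNMT1_OB at its promoter, 0.192 and 0.194 in exons, 0.361 and 0.346 in introns and 0.82 and 0.816 in its 3′ UTR. Fgfr2 had 0.25 and 0.238 at its promoter, 0.566 and 0.57 in exons, 0.508 and 0.481 in introns and 0.822 and 0.81 in its 3′ UTR. The 5′ UTR had 0.0317 in NC_OB and 0.0305 in siDNMT1_OB in Rora, and 0.0349 and 0.0404 in Fgfr2. Introns of Rora and Fgfr2 had differences of -0.0152 and -0.0264, against a median of -0.0131 over all introns. Introns of Ihh, Itga8 and Sox6 had -0.0159, -0.03 and -0.0304. Outside introns, Ihh exons had 0.244 and 0.267 and the Sox6 5′ UTR 0.772 and 0.734. The imprinted noncoding RNA gene H19 went from 0.614 to 0.55 at its promoter and from 0.599 to 0.528 in exons. Grem1, a BMP antagonist, was higher in both classes listed, with 0.398 and 0.463 at its promoter and 0.414 and 0.432 in introns. Hey1, Sox9, Wnt3a and Hdac9 had promoter differences between -0.00582 in Sox9 and 0.00214 in Hey1.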

How the data were processed

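Reduced representation bisulfite sequencing, from DNA that the methods describe as sonicated, was read in 4 libraries, 1 per condition. Per the labels and methods, the authors filtered reads with Trimmomatic 0.36 and aligned them to mm10 with Bismark 0.16.3. They deposited, per region, the fraction of methylated CpG (0 to 1). The coverage minimum and the weighting of cytosines are not given in the sources used here, so depth is unknown, and thinly read regions may take extreme levels.

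Levels were subtracted (siDNMT1_OB minus NC_OB). A change was counted from 0.1, with a tolerance of 1e-09. Medians carry a 95% order-statistic interval. No test was possible with 1 library per condition. Positions use GRCm38 and GENCODE vM21, with identifiers read as counting the start from 0. Functions were tested on simulated data. Analyses used Python 3.11.15, pandas 2.3.3, numpy 2.4.6 and scipy 1.17.1.

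The members, gene lists and naming rules were chosen with earlier results of these data known. The text names up to 10 genes per direction with at least 3 classes past 0.1, ranked by the smallest of their 3 largest differences, the 5 largest falls and rises of each class (3 for exons and repeats), a list of genes from the study's text and from earlier results, list members past 0.1, and the 3 highest and lowest repeat names. A few named results are not reported here. Alternatives covered thresholds, centring, regions in all 4 libraries, chromosomes 1 to 19, levels at exactly 0 or 1, the number of classes, and, chosen after seeing the data, a threshold of 0.03, CpG minimums of 30 and 50, and subtraction of the class median difference.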

Additional observations from a re-analysis of the deposited data

Results flagged for a closer look

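Several results had the opposite direction in the uninduced pair, which shares no library with the OB pair, and in each case the difference between the pairs was not tested. Islands had a median difference of -0.00111 after induction and 0.000471 without it, and 5′ UTRs had -0.00069 and 0.000619. In shores 325 fell and 152 rose after induction, against 200 and 223 in uninduced cells, and in 5′ UTRs 144 fell and 80 rose, against 99 and 106. The repeat class DNA/TcMar-Tigger had medians of -0.0169 and 0.0015.

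Single regions that passed 0.1 in opposite directions in the pairs were the promoter, 5′ UTR and exons of Chrdl1 (0.129 after induction, -0.152 without), the promoter of Il1rapl2 (0.13 and -0.112), the islands of Hk1 (-0.3 and 0.294), Arhgef19 (0.345 and -0.122) and Gm8399 (0.275 and -0.139), and the shore of Dtymk (-0.453 and 0.603). The 5′ UTRs of 5330417C22Rik (-0.333 and 0.632), Msgn1 (0.497 and -0.162) and Peg3 (-0.145 and 0.174) did so too. So did the introns of Plin4 (-0.524 and 0.275) and the 3′ UTRs of Kdm5c (-0.6 and 0.117), Cox19 (-0.4 and 0.161), Man2a1 (0.588 and -0.172) and Atf5 (0.542 and -0.375). Among repeat entries, B1F1 had -1 and 0.238 and ORR1F had 1 and -0.6.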

How the results depend on the processing

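No paired analysis was possible because each condition had 1 library, and for the same reason no replicate could be left out. With a threshold of 0.05 the regions that fell and rose were 284 and 147 in islands, 1543 and 543 in shores, 1438 and 534 in promoters, 507 and 308 in 5′ UTRs, 1674 and 609 in exons, 1665 and 412 in introns, 642 and 161 in 3′ UTRs and 8376 and 3845 in repeats, and with 0.2 they were 11 and 14 in islands, 53 and 34 in shores, 54 and 51 in promoters, 24 and 24 in 5′ UTRs, 68 and 55 in exons, 52 and 44 in introns, 25 and 24 in 3′ UTRs and 728 and 512 in repeats. Rises equalled or outnumbered falls in islands and 5′ UTRs at 0.2. Centring each library on its class medians left 176 introns and 70 3′ UTRs that fell, and rises then outnumbered falls in 3′ UTRs and repeats. Subtracting the class median difference instead, chosen after seeing the data, left 74 3′ UTRs that fell, fewer than the rises, but not so in repeats, and moved none of the other 17 results by more than 1.5 times. With at least 30 CpG, 26 of 11983 islands fell and 26 rose, and 163 of 10584 shores fell and 72 rose. With at least 50 CpG these were 8, 12, 36 and 23, of 8841 islands and 3351 shores. Both of these minimums were chosen after seeing the data. Every island held at least 14 CpG, so a minimum of 10 left islands as they were, and it could not be run on repeats, which have no position, nor could the restriction to chromosomes 1 to 19.

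Genes with classes that fell and rose together numbered 109 and 32 at 0.05, 698 and 77 at 0.03, 0 and 1 at 0.2, 87 and 55 with at least 2 classes, 1 and 1 with at least 4, and 1 and 1 without exons. On chromosomes 1 to 19 they numbered 4 and 3. Of the 6 genes that fell and 7 that rose in the main setting, 2 and 4 lay on the X chromosome. In 4 and 5 of them, at least 2 classes had identical levels. What moved the counts was not tested. As means, differences were -0.00393 in islands, -0.0116 in shores, -0.00912 in promoters, -0.00318 in 5′ UTRs, -0.011 in exons and -0.0148 in introns. Over regions with a mean level of at least 0.5, medians were -0.0138 in islands, -0.0214 in shores, -0.0203 in promoters, -0.016 in 5′ UTRs, -0.0186 in exons, -0.0209 in introns, -0.0227 in 3′ UTRs and -0.0193 in repeats. No median changed sign. Using only regions with a level in all 4 libraries moved none of 26 results by more than 1.5 times or beyond its interval, and leaving out levels at exactly 0 or 1 none of 18. The unknown depth limits every single level, and a difference in 1 region cannot be told apart from sampling of few reads.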
